A study of Mus musculus with 3 samples.

Results

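The mouse CC chemokine genes Ccl2, Ccl3, Ccl4, Ccl5, Ccl6, Ccl7, Ccl9 and Ccl12 lie together on chromosome 11 and were described here in RNA bound to chromatin. They were taken by gene symbol, 8 genes of the 55536 annotated genes in the files, and all 8 were found and passed the count minimum used for testing. Bone-marrow-derived macrophages of the C57BL/6J strain were stimulated for 90 minutes with 100 ng/ml of lipid A, the part of bacterial lipopolysaccharide that cells detect, and RNA of their chromatin fraction was sequenced after ribosomal RNA had been depleted. The series held 1 group of 3 biological replicates, made from 1 µg of RNA in replicate 1, 250 ng in replicate 2 and 500 ng in replicate 3, so the amount of RNA and the replicate cannot be told apart. The donor label was the same for all 3 libraries, so a p-value here reflects only how much these libraries differ, and part of that can be technical. Unstimulated cells were not analysed here, and every value is a level after lipid A, not a change caused by it.

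Chemokines are small secreted proteins that guide leukocytes along a gradient by binding receptors on the target cell, and the CC family is named for a pair of adjacent cysteines. Macrophages that sense lipid A through Toll-like receptor 4 switch on many CC chemokine genes by way of NF-kB and interferon regulatory factors, and the proteins then draw in monocytes, T cells and other leukocytes. Chromatin-fraction RNA holds nascent transcripts, parts of which are not yet spliced, and RNAs that do not leave the nucleus. It is therefore closer to transcription than the messenger RNA of whole cells.

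The libraries held 11277198, 24965749 and 19794886 expected counts (replicates 1, 2 and 3). The 8 genes held 10131, 8205 and 9666 of these, which was 0.131%, 0.0818% and 0.097% of the counts in protein-coding genes. The macrophage label was checked against marker genes. Of 10 macrophage markers 8 were called above by the test used for the members, against 21.3% of all genes tested. The 10 markers summed to 1161, 669 and 870 TPM. The highest means were 284.6 TPM for Cybb, a subunit gene of the phagocyte oxidase, 223.8 TPM for the scavenger receptor gene Msr1, 221.1 TPM for Adgre1, which encodes F4/80, and 41.06 TPM for Csf1r, the receptor of a macrophage growth factor. The 2 markers not called, the Fc receptor gene Fcgr1 and the integrin gene Itgam, averaged 3.26 and 3.02 TPM. The 8 neutrophil markers summed to 0, 1.51 and 0.48 TPM, with Elane, Ly6g, Mpo and Retnlg at 0. The 8 T and NK cell markers summed to 2.28, 0.98 and 3.21 TPM, with Cd3e, Cd8a, Klrb1c and Ncr1 at 0. The 6 B cell markers summed to 0.57, 0.67 and 0.79 TPM, the 6 mast cell and basophil markers to 1.99, 0.4 and 0.57 TPM with Cpa3, Fcer1a, Mcpt4 and Mcpt8 at 0, the 6 dendritic cell markers to 7.04, 4.76 and 5.88 TPM, and the 6 stromal and endothelial markers to 0.32, 1.03 and 1.99 TPM.

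On the mm10 genome the members span 1629 kb of chromosome 11 in a pair of groups. Ccl2 (82035571 to 82037453), Ccl7 (82045712 to 82047525) and Ccl12 (82101845 to 82103400) lie on the plus strand. After a gap of 1422 kb follow Ccl5 (83525778 to 83530518), Ccl9 (83572919 to 83578636), Ccl6 (83587882 to 83593087) and Ccl3 (83647844 to 83649355) on the minus strand, and Ccl4 (83662584 to 83664683) on the plus strand. The first group encodes monocyte chemoattractant proteins, and the second holds the macrophage inflammatory proteins together with Ccl5.

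Among the monocyte chemoattractants, Ccl2 and Ccl7 were high and Ccl12 was near the typical expressed gene. Ccl2, the main ligand of Ccr2 on inflammatory monocytes, measured 175.78, 88.91 and 147.34 TPM (a level per length, scaled to a fixed total over all genes) in replicates 1, 2 and 3. Its mean was 137 TPM ± 44.3 (SD, n = 3). Ccl7, which also binds Ccr2, measured 99.71, 58.44 and 98.43 TPM, a mean of 85.5 TPM ± 23.5 (SD, n = 3). Replicate 2 was lowest for both genes, and replicates 1 and 3 were close for Ccl7 only. Ccl12, a mouse ligand of Ccr2, measured 16.26, 3.54 and 7.08 TPM from 74, 27 and 44 expected counts. Its highest library was 4.59 times its lowest.

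Of the macrophage inflammatory proteins and Ccl5, which draw in monocytes and T cells, Ccl5 stood highest in gene TPM in every library. Gene TPM takes all annotated transcripts of a gene together, and those of Ccl5 include 1 that keeps part of an intron, described below. Ccl5, also named RANTES, measured 517.24, 207.66 and 306.83 TPM, a mean of 344 TPM ± 158 (SD, n = 3), and made up 41.9%, 38.4% and 37.1% of the summed TPM of the 8 genes. Ccl4 measured 217.08, 102.53 and 151.57 TPM, a mean of 157 TPM ± 57.5 (SD, n = 3). Ccl3 measured 155.14, 46.88 and 80.95 TPM, a mean of 94.3 TPM ± 55.4 (SD, n = 3). All 3 genes had their highest value in replicate 1 and their lowest in replicate 2, and replicate 1 exceeded replicate 2 by 2.49 times for Ccl5, 2.12 times for Ccl4 and 3.31 times for Ccl3.

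The neighbouring genes Ccl9 and Ccl6 encode ligands of Ccr1 in the mouse. In the TPM used here they were the low pair of the second group. Ccl9 measured 45.30, 25.98 and 27.54 TPM, a mean of 32.9 TPM ± 10.7 (SD, n = 3). Ccl6 measured 7.98, 6.14 and 7.23 TPM from 91, 98 and 89 expected counts, a mean of 7.12 TPM ± 0.925 (SD, n = 3). The lowest library of Ccl9 was above the highest of Ccl6, and Ccl6 varied least of the 8 members in TPM, with a coefficient of variation of 13.0%. A second quantification, described below, gave Ccl9 262.0, 87.4 and 142.4 TPM in replicates 1 to 3. Ccl3 had 340.7, 66.7 and 140.5 TPM there, below Ccl9 in replicates 2 and 3.

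**Figure D1:**
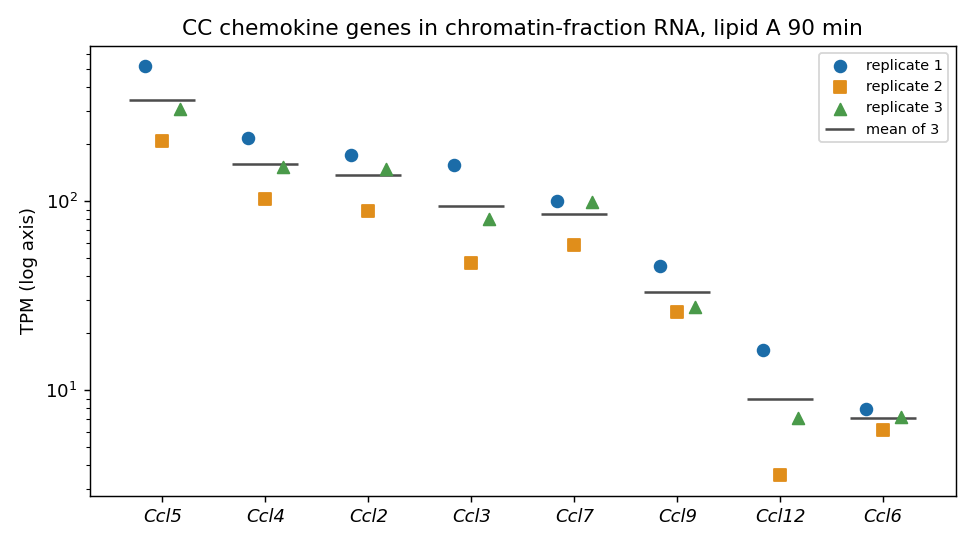
TPM of each member on a log axis, 1 point per library and a bar at the mean of 3 libraries, ordered by mean. Replicate 1 is the highest and replicate 2 the lowest point for each of the 8 genes, and the means run from 344 TPM for Ccl5 to 7.12 TPM for Ccl6.

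Each of the 8 members had its highest TPM in replicate 1 and its lowest in replicate 2. The median expressed protein-coding gene moved the same way, at 5.5, 3.7 and 4.93 TPM in replicates 1 to 3, and so did the starting amount of RNA, whose part in the difference was not tested. A level relative to that median was therefore used for testing: log2(TPM + 1) of the gene minus the median of the expressed protein-coding genes of the same library.

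On that scale 6 of the 8 members were more than 2-fold above the typical expressed gene. The level was 5.83 ± 0.44 log2 units (SD, n = 3) for Ccl5, 4.74 ± 0.31 for Ccl4, 4.56 ± 0.27 for Ccl2, 3.91 ± 0.63 for Ccl3, 3.89 ± 0.21 for Ccl7 and 2.54 ± 0.28 for Ccl9. A two-sided test with limma's treat and a bound of 1 log2 unit was adjusted by Benjamini-Hochberg over 13434 genes. In it Ccl5 had an adjusted p of 1.0e-05 and Ccl9, the weakest of the 6, an adjusted p of 5.0e-04. The members called above were 6 of 8, against 21.3% of all genes tested, and none was called below, against 21.3% of all genes tested. At an unadjusted p under 0.05, and by edgeR on the counts, the members were again 6 above and 0 below. The members' median level was 3.90, beside -0.21 over all genes tested.

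Ccl12 and Ccl6 were not called. Ccl12 had levels of 1.41, -0.05 and 0.45 log2 units in replicates 1 to 3, on both sides of the typical gene, with a mean of 0.60 ± 0.74 (SD, n = 3). Ccl6 had levels of 0.47, 0.60 and 0.47, a mean of 0.51 ± 0.08 (SD, n = 3). The adjusted p of limma's treat was 1 for both. Ccl5 exceeded 99.8%, 99.3% and 99.5% of the tested protein-coding genes in replicates 1 to 3, while Ccl6 exceeded 58.3%, 61.2% and 58.8% of them.

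**Figure D2:**
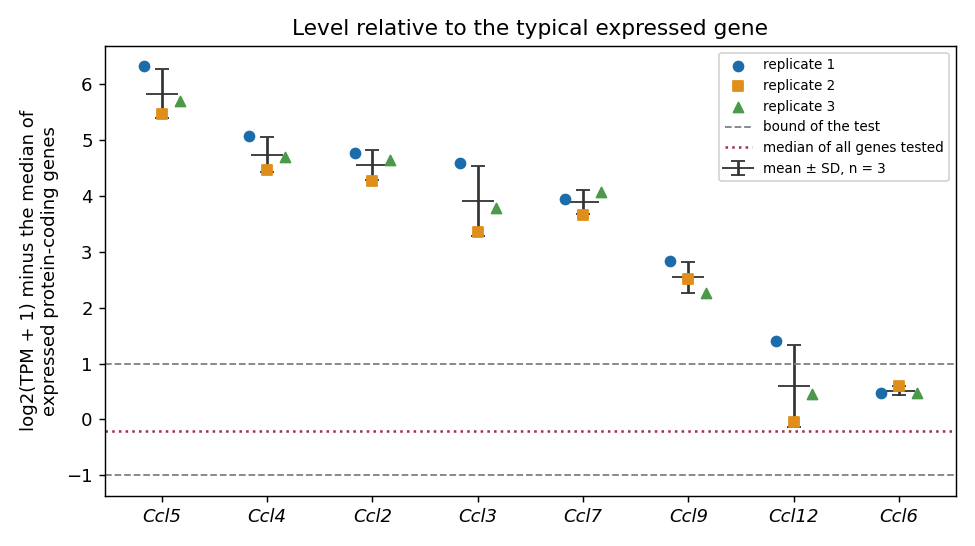
Level of each member, log2(TPM + 1) minus the median of expressed protein-coding genes, with 1 point per library and the mean ± SD of 3 libraries. Dashed lines mark the bound of 1 log2 unit used in the test and the dotted line the median of all genes tested, -0.21. All libraries of the 6 called members lie above the upper bound, and Ccl12 and Ccl6 have means of 0.60 and 0.51.

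The minimum count bears on these calls, and the centring on the counts over all genes. With genes of a mean count of at least 100 only, the median gene was higher, Ccl9 stood at 1.47 log2 units and limma's treat no longer called it (adjusted p = 0.0659, range over 10 alternatives 1.3e-14 to 0.0659). With no minimum, Ccl6 stood at 1.46 and was called (adjusted p = 0.0233, range over 9 alternatives 0.0233 to 1). Centring on all tested genes shifted the median of all genes by 0.21 log2 units and moved the calls over all genes to 3196 above and 2084 below, beside 2864 and 2859, with the members at 6 above and none below under both centrings.

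The order by mean gene TPM was Ccl5, Ccl4, Ccl2, Ccl3, Ccl7, Ccl9, Ccl12, Ccl6. The first 3 places and the sixth were the same in each library, but Ccl7 stood above Ccl3, and Ccl6 above Ccl12, in replicates 2 and 3. Neighbours in this order were compared within libraries in 7 pairs by flipping the signs of the differences in log2(TPM + 1), an exact permutation test, two-sided. With 3 libraries its smallest p is 0.25, so no pair could pass the threshold. Ccl5 exceeded Ccl4 by 1.09 ± 0.14 log2 units (SD, n = 3), higher in 3 of 3 libraries (exact p = 0.25, adjusted p = 0.35). Ccl4 exceeded Ccl2 by 0.18 ± 0.13 and Ccl2 exceeded Ccl3 by 0.65 ± 0.41, both in 3 of 3 libraries, and for these pairs too the ranges over libraries overlapped. Ccl7 over Ccl9 (1.35 ± 0.39) and Ccl9 over Ccl12 (1.94 ± 0.58) were the 2 pairs whose ranges did not overlap. Ccl3 against Ccl7 differed by 0.01 ± 0.54 and Ccl12 against Ccl6 by 0.09 ± 0.80 log2 units, each higher in 1 of 3 libraries (exact p = 1), and without replicate 1 the differences were -0.30 and -0.34.

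The spread between libraries set Ccl12 and Ccl3 apart from the other members in size. On log2 CPM, counts scaled to the library's total, after TMM normalization, a scaling that removes library-wide differences, Ccl12 measured 2.25, 0.68 and 1.29 in replicates 1 to 3, an SD of 0.79. Ccl3 measured 6.25, 5.17 and 5.58, an SD of 0.54. Ccl5 (0.35), Ccl4 (0.23), Ccl9 (0.22), Ccl2 (0.20), Ccl7 (0.19) and Ccl6 (0.14) had SDs below the median of all genes tested, 0.40. On the level relative to the median protein-coding gene, Ccl5 (0.44) and Ccl4 (0.31) also lay over the median SD of all genes, which was 0.29. Replicate 1 remained the highest library on the TMM scale for 7 members, and replicate 3 for Ccl7, at 5.70, 5.58 and 5.95.

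Most of the TPM of Ccl5 was assigned to an isoform that keeps the start of an intron. GENCODE M21 gives Ccl5 a spliced isoform with 3 exons, Ccl5-201, and Ccl5-202, typed retained intron, which runs past the end of exon 2 into 428 of the 3091 bases of intron 2 (chr11:83528728-83529155, minus strand) and ends there. Each library was quantified in 2 ways, without an alignment (alignment-free) and from an alignment to the transcriptome (alignment-based, the source of all values above). The alignment-free tables gave Ccl5-202 a share of 67.1%, 67.9% and 63.6% of the gene's TPM in replicates 1 to 3. The alignment-based tables gave it 74.1%, 81.5% and 77.2% (77.6% ± 3.68, SD, n = 3) and Ccl5-201 the remaining 25.9%, 18.6% and 22.8%. Ccl2 has a like pair: Ccl2-202 keeps the whole of intron 2, 325 bases (chr11:82036601-82036925, plus strand), and held 51.4%, 46.7% and 41.7% of the TPM in the alignment-free tables and 66.5%, 52.0% and 48.5% in the alignment-based ones. Its share was highest in replicate 1 in both.
The sequences that separate these isoforms are shown on the coding strand as 30 bases on each side of the end of exon 2, with intron bases in capitals:
Ccl5-202: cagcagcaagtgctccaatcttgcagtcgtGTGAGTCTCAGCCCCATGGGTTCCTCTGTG
Ccl5-201: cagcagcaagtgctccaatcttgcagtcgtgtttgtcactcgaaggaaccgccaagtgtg
Ccl2-202: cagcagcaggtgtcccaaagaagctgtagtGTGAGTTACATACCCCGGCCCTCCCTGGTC
Ccl2-201: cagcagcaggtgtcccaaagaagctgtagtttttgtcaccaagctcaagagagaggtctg
Their exon 2 parts are chr11:83529156-83529185 for Ccl5 and chr11:82036571-82036600 for Ccl2, their intron parts chr11:83529126-83529155 and chr11:82036601-82036630, and their exon 3 parts chr11:83526035-83526064 and chr11:82036926-82036955 (mm10, from the GENCODE M21 transcripts). Both introns open with GTGAGT, a sequence that begins with the GT of a 5′ splice site. A read across the first kind of junction carries unspliced RNA, and a read across the second kind carries spliced RNA. The first kind can come from Ccl5-202 or Ccl2-202 or from RNA not yet spliced, and the shares above cannot tell these apart.

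Set beside other genes, the share of Ccl5-202 was high and that of Ccl2-202 was not. Of 6570 tested protein-coding genes with both a protein-coding and a retained-intron isoform, the median gene had 44.3% of its TPM in retained-intron isoforms and 40.7% of genes had over 50%. Ccl5 exceeded 92.3% of these genes, Ccl6, whose 2 retained-intron isoforms Ccl6-202 and Ccl6-203 held 63.4% together, exceeded 78.2%, and Ccl2 exceeded 67.5%. In the alignment-free tables Ccl5 exceeded 79.4% of 6571 genes, Ccl6 90.3% and Ccl2 53.9%. Genes differ in how many such isoforms are annotated, and Ccl3, Ccl4 and Ccl7 have none, so no such share is given for them. The order by gene TPM thus sets unlike measures side by side. In the alignment-based tables Ccl5-201 alone measured 133.87, 38.52 and 70.02 TPM in replicates 1 to 3, below Ccl4 and Ccl3 in each library. Ccl2-201 alone measured 58.81, 42.65 and 75.94 TPM, below Ccl3 and Ccl7 in each library. In the alignment-free tables Ccl5-201 was below Ccl4 in each library but above Ccl3 in replicates 2 and 3.

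The shares of Ccl9 and Ccl12 depended on the quantification. Ccl9-202 is a noncoding isoform of 398 bases, typed processed transcript, beside the protein-coding Ccl9-201 of 3006 bases. The alignment-free tables gave Ccl9-202 85.1%, 85.3% and 87.5% of the gene's TPM, while in the alignment-based tables it held 13.9%, 21.1% and 17.2%. In counts it held 750.6, 847.1 and 701.8 in the alignment-free tables and 16.75, 22.13 and 16.28 in the alignment-based ones. TPM is per length, so a count in the short isoform weighs more than a count in the long one. Ccl12-202, also typed processed transcript, held 28.6%, 36.8% and 29.4% in the alignment-free tables and 4.10%, 0% and 3.71% in the alignment-based ones.

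**Figure D3:**
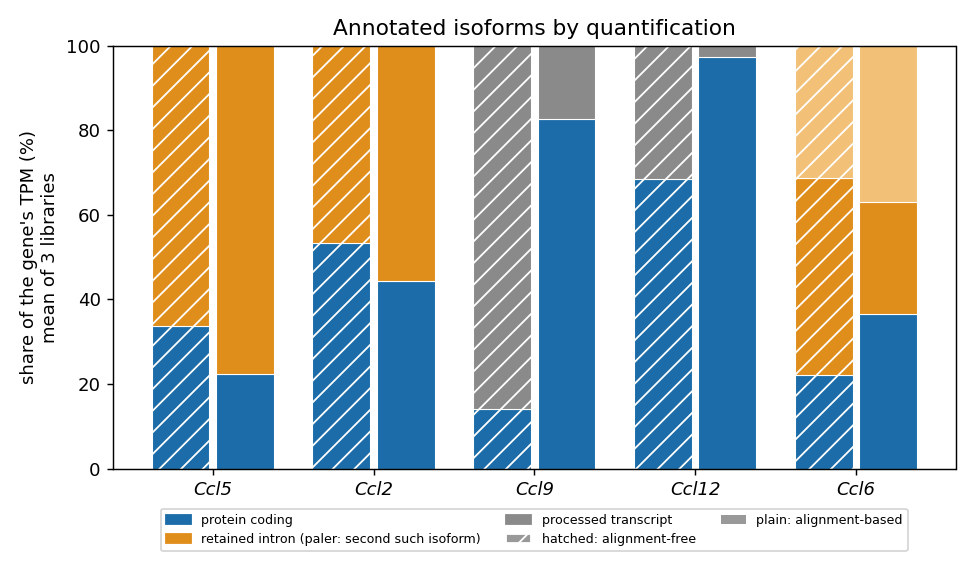
Share of each gene's TPM in its annotated isoforms, as the mean of 3 libraries, for the 5 members with more than 1 isoform. Hatched bars are the alignment-free tables and plain bars the alignment-based ones, coloured by annotated type. The processed transcript of Ccl9 takes 86.0% in the hatched bar and 17.4% in the plain one, while Ccl5 keeps most of its TPM in the retained-intron isoform in both.

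Relative to the median protein-coding gene of each quantification, Ccl9 was the 1 member whose mean level differed by more than 2-fold. Its alignment-free TPM was 262.0, 87.4 and 142.4 in replicates 1 to 3, against 45.30, 25.98 and 27.54 in the alignment-based tables. After each was centred on its own median protein-coding gene, the difference alignment-free minus alignment-based was 1.63 ± 0.14 log2 units (SD, n = 3), higher in 3 of 3 libraries, with an adjusted p of 0.0215 (limma's treat, bound of 1 log2 unit). The members called above were 1 of 8, against 1.90% of the 13427 genes tested, and none was called below, against 0.633% of genes, also with none below at an unadjusted p under 0.05. The call was lost without replicate 2 (1.65, adjusted p = 0.0525), without replicate 3 (1.55, adjusted p = 0.197) and with no minimum count (1.52, adjusted p = 0.114), over a range of 1.5e-04 to 0.197 in 6 alternatives. The other 7 members differed by between -0.41 (Ccl2) and 0.57 (Ccl12) and were not called.

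Counts without length showed another pattern. Ccl4 had 3.50, 3.67 and 3.21 times as many counts in the alignment-free as in the alignment-based tables, in replicates 1 to 3. Ccl12 had 3.54, 3.96 and 3.52 times and Ccl3 2.62, 3.22 and 2.70 times as many. These ratios were the highest of the members and above that of the library totals, 1.64, 1.83 and 1.73, in each library. Ccl2 was near the totals at 1.61, 1.77 and 1.75, Ccl9 at 1.66, 1.84 and 1.78 and Ccl6 at 1.87, 1.84 and 1.80. Ccl5 was in between, at 2.20, 2.25 and 2.25, and Ccl7 at 2.31, 1.92 and 1.81, both also above the totals in each library. By mean alignment-free TPM the order was Ccl5, Ccl4, Ccl3, Ccl2, Ccl9, Ccl7, Ccl12, Ccl6, with Ccl3 at 183, Ccl2 at 164.1 and Ccl9 at 163.9. In replicates 2 and 3 Ccl2 was above Ccl3, at 72.6 against 66.7 and 168.2 against 140.5 TPM. The sources used here do not give how each quantification treated unspliced reads, and its part in these ratios was not tested.

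**Figure D4:**
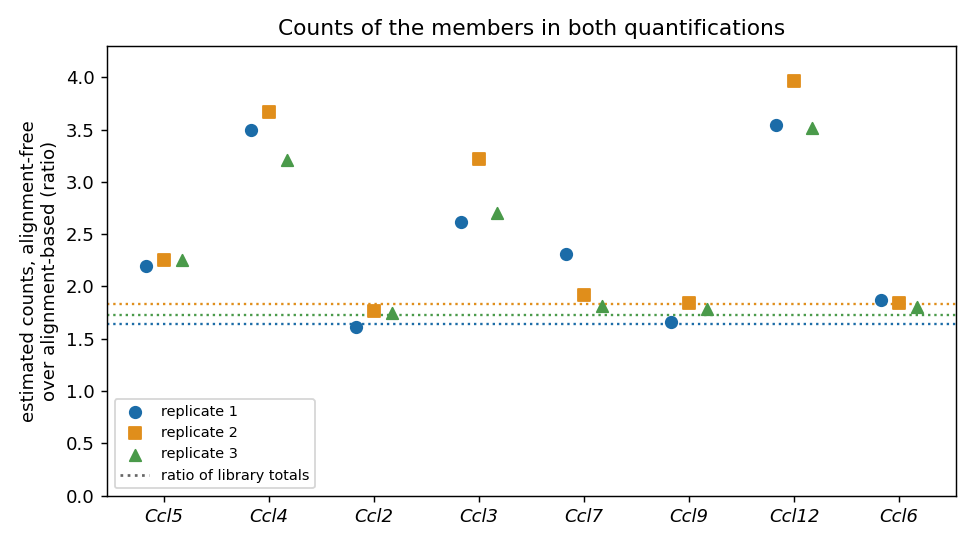
Counts in the alignment-free tables divided by those in the alignment-based tables, 1 point per library, with dotted lines at the ratio of the library totals (1.64, 1.83 and 1.73). Ccl4, Ccl3 and Ccl12 lie furthest above the lines in all 3 libraries, Ccl5 and Ccl7 are also above them, and Ccl2, Ccl9 and Ccl6 lie close to them.

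Sequence shared between genes was small for the members. All 24 alignment-based counts, 8 genes in 3 libraries, were whole numbers with a posterior standard deviation of 0, as a count has when none of its reads is divided between genes. In coding sequence the closest pair was Ccl4 and Ccl3, with 68.1% identical bases over the alignment, followed by Ccl9 and Ccl6 with 64.8% and Ccl7 and Ccl12 with 63.2%. Of all stretches of 31 bases in the members' transcripts, none of Ccl4, Ccl2, Ccl3, Ccl7 or Ccl12 occurred in a transcript of another gene. Ccl5 shared 0.539%, Ccl6 1.02% and Ccl9 3.75% of theirs on the same strand. Counting both strands, Ccl9 shared such stretches with transcripts of 1918 genes.

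Between the first and the last member lie 60 other annotated genes, 29 of them protein-coding, with means from 0 to 7367 TPM. Of the 25 that passed the count minimum 9 were called above and 4 below, against 21.3% of all genes tested in each direction, and 12 were not called, with a median level of 0.30 beside -0.21 over all genes. The 5 with the highest mean TPM were the small nuclear RNA gene Gm23444 (7367 TPM), Slfn8 (117 TPM), Slfn5 (115 TPM) and Slfn2 (113.5 TPM) of the Schlafen family, which is linked to growth arrest and antiviral defence, and Taf15 (61.9 TPM), which encodes an RNA-binding protein. The TPM of Gm23444 was 12729.3, 2659.35 and 6712.4 in replicates 1 to 3, and the short length of such genes raises their TPM. Slfn2 measured 153.37, 65.29 and 121.8 TPM, below Ccl2 in each library. Gm17268 overlaps all 1883 bases of Ccl2 on the opposite strand and had no counts in any library. The noncoding gene E230016K23Rik overlaps all 5206 bases of Ccl6 on the opposite strand and had 15, 10 and 9 counts, against 91, 98 and 89 for Ccl6. The annotated transcripts of Ccl6 share no stretch of 31 bases on the opposite strand with those of any other gene. Whether the counting used strand is not given in the sources used here, so reads of unspliced E230016K23Rik RNA that fall on Ccl6 exons cannot be told apart from reads of Ccl6.

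**Figure D5:**
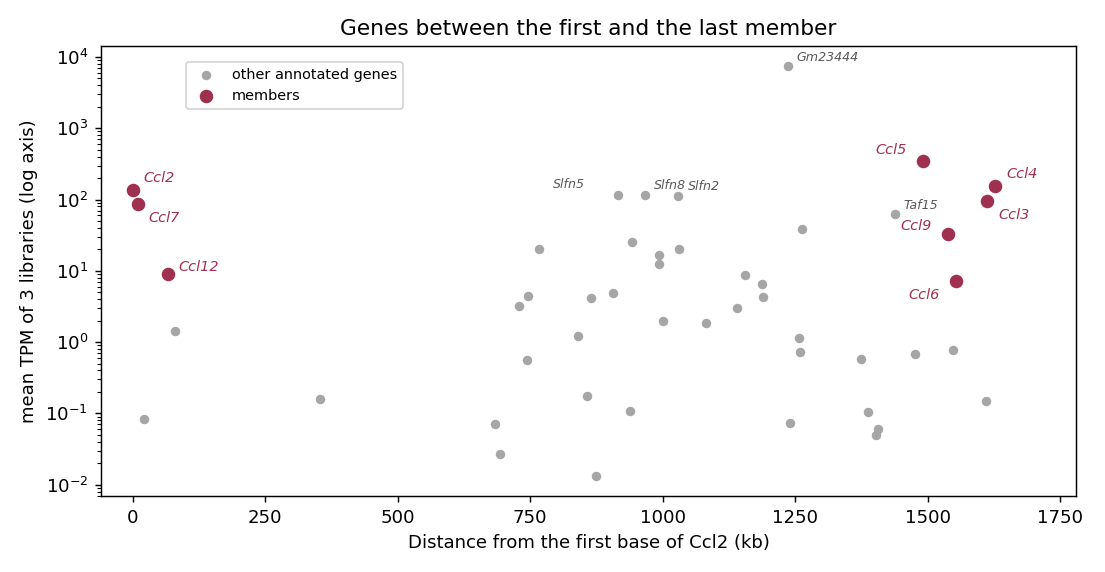
Mean TPM of 3 libraries on a log axis against the distance in kb from the first base of Ccl2, for the 8 members and the 41 other genes of the interval with a mean above 0 (the other 19 are at 0 and not drawn). The members sit at both ends of the interval, the Schlafen genes between them reach 117 TPM, and Gm23444 is highest at 7367 TPM.

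The other CC chemokine genes listed were low or, for Ccl25, near the typical gene in the same libraries. Of 10 such symbols, for which 11 genes are annotated since Ccl19 has 2, 3 passed the count minimum. Of these 3, 0 were called above and 2 below, against 21.3% of all genes tested in each direction. Ccl25, a chemokine of thymus and gut, was not called at 0.28 ± 0.32 log2 units (SD, n = 3). Ccl22 and Ccl24, ligands of Ccr4 and Ccr3, were called below at -1.68 ± 0.07 and -1.92 ± 0.08, with adjusted p of 0.0069 and 0.00207 in limma's treat. Ccl1, Ccl17, Ccl19 and Ccl20 had no counts in any library, which allows up to 0.266, 0.120 and 0.152 CPM in replicates 1 to 3 by counting error only. Ccl11, Ccl8 and Ccl1 lie in the interval between Ccl7 and Ccl5, and the first 2 are named for that, after their values were seen. Ccl8 measured 2.13, 0.72 and 1.4 TPM and Ccl11 0.25, 0 and 0 TPM.

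Receptors for these chemokines were low or near the typical gene in the same RNA. Of 8 receptor genes, 5 of them over the count minimum, none was called above and 2 below, as also at an unadjusted p under 0.05 and by edgeR, against 21.3% of all genes tested in each direction. Ccrl2, an atypical relative of the CC receptors, measured 1.00 ± 0.08 log2 units (SD, n = 3) and Ccr1 0.40 ± 0.31, with no call. Ccr3 and Ccr2 were called below, at -1.99 ± 0.17 and -2.31 ± 0.29 (adjusted p in limma's treat of 0.0018 and 9.7e-04). Ccr2, the receptor of Ccl2, Ccl7 and Ccl12, measured 0.11, 0.18 and 0.13 TPM. Ackr1, Ackr2 and Ccr4 had no counts.

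Of 15 regulators of transcription known to act on chemokine genes 11 were called above and none below in limma's treat, by edgeR and at an unadjusted p under 0.05, against 21.3% of all genes tested in each direction. Their median level was 2.66, beside -0.21 over all genes. Nfkb1, an NF-kB subunit, stood at 6.01 ± 0.02 log2 units (SD, n = 3), Irf1, an interferon regulatory factor, at 5.79 ± 0.33, the subunit gene Nfkb2 at 5.24 ± 0.61 and Nfkbiz, a nuclear IkB protein, at 4.23 ± 0.18. The lowest were Jun, a part of AP-1, and Cebpd, a C/EBP factor, at -0.34 ± 0.28 and -1.12 ± 0.46, without a call. Of 6 regulators of mRNA decay 3 were called above and none below by the same 3 measures, with a median level of 1.52: Zfp36, which binds AU-rich elements, at 3.07 ± 0.52, the RNase gene Zc3h12a at 2.56 ± 0.26, and Rc3h1 at 1.84 ± 0.27. Elavl1, Zfp36l2 and Zfp36l1 were not called (1.20 ± 0.36, -0.35 ± 0.09 and -0.71 ± 0.24).

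AU-rich pentamers, which proteins such as Zfp36 bind in the 3′ untranslated regions of unstable mRNAs, were counted as ATTTA in the annotated regions of the members. Ccl12 had 5 matches in 167 bases, Ccl3 5 in 409, Ccl4 2 in 302, Ccl7 2 in 435, Ccl6 4 in 943, Ccl2 1 in 275 and Ccl9 5 in 2465. Ccl5 had none in 199 bases. Over 10464 tested genes, each by its transcript with the most matches, the median was 2 matches in all and 1.47 per kb, and 72.8% had at least 1. Per kb, Ccl12 with 29.9 and Ccl3 with 12.2 had the most of the 8. A match says only that these letters are present.

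Promoter sequence was at hand for 4 members, Ccl12, Ccl9, Ccl6 and Ccl3 (RefSeq, GRCm38.p6, the build that mm10 names). The 250 bases before each start were searched on both strands for 5 motifs: the NF-kB consensus, TATAAA for the TATA box, TGANTCA for AP-1, TTGCNNAA for C/EBP and GAAANNGAA for interferon regulatory factors. Over 32851 promoter windows of that length 7.25% held the NF-kB consensus, 12.4% TATAAA, 6.75% the AP-1, 9.56% the C/EBP and 7.13% the interferon regulatory factor letters.
Ccl9 and Ccl6 are shown because they are neighbours with 9245 bases between them and levels that did not overlap, with matches in capitals, 5′ to 3′ on the minus strand of chr11:83578637-83578886 for Ccl9 and chr11:83593088-83593337 for Ccl6:
Ccl9: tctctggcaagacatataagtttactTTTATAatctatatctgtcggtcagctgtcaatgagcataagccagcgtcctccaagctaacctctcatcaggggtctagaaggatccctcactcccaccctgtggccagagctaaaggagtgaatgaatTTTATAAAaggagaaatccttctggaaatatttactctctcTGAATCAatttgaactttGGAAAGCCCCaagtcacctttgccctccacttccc
Ccl6: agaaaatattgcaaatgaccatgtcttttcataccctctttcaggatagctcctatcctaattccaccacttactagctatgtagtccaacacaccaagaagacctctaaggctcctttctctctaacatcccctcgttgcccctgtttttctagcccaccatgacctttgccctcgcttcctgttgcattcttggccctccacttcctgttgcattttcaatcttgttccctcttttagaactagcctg
In Ccl9 the capitals mark 3 matches to TATAAA, which begin 224, 94 and 92 bases before the start and of which the last 2 overlap on opposite strands, an AP-1 match at 53 bases and an NF-kB match at 35 bases before the start. The Ccl6 window held no match to any of the 5. Ccl12 held TATAAA at 31 bases before the start, and Ccl3 held a match to the interferon regulatory factor letters at 39 bases. Aligned over their length, the Ccl6 and Ccl9 windows had 47.2% identical bases, within the 43.7% to 50.2% of the 6 pairs, and their longest shared run was 13 bases, against 7 to 9 in the other pairs.

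The genes whose levels were most like those of Ccl5 over the 3 libraries, among 10529 tested protein-coding genes, were Znrf1, a ubiquitin ligase gene, Irf1 and Ifih1, which encodes an RNA sensor. Their root mean square differences from Ccl5 were 0.063, 0.117 and 0.176 log2 units. Znrf1 measured 505.78, 200.13 and 288.07 TPM. The genes most like Ccl6 were Foxn3, Rpl14 and 2210016L21Rik, at 0.021, 0.024 and 0.058 log2 units, and Foxn3 measured 7.82, 6.26 and 7.29 TPM. Only 3 values enter each likeness.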

How the data were processed

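Chromatin-fraction RNA, depleted of ribosomal RNA, was sequenced in 3 libraries of 1 group, per the labels. The deposited gene and transcript tables give expected counts (not scaled) and TPM, made by the authors from a transcriptome alignment with mm10 and GENCODE M21, per the deposited description files, and the deposited isoform shares in percent of a gene's TPM. A second deposited table per library holds estimated counts and TPM of transcripts, made by the authors without an alignment file. Column names are those of RSEM and kallisto, per the file headers. Of the deposited scores only the members' posterior standard deviations of counts were read. The aligner, its version, strand and multi-mapping settings: not given in the sources used here. TPM is scaled over all entries of a file, so 1 abundant RNA moves all others.

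Genes whose expected counts averaged 10 or more entered the tests with limma 3.58.1 (R 4.3.3) treat, bound 1 log2 unit on log2(TPM + 1), which understates differences of low genes, and Benjamini-Hochberg adjusted p-values over all genes were called under 0.05. TMM factors (1.439, 0.7264 and 0.9564) came from edgeR 4.0.16 with a prior count of 2. edgeR on rounded expected counts with length offsets was an alternative, as a quasi-likelihood F test against the nearest bound, because glmTreat needs more than an intercept, and DESeq2 1.42.0 gave other size factors. The fits were also run on simulated counts in which the true level of a gene was the same in all 3 libraries. No result given here rests on that run. Alternatives were another pseudocount, minimum, TPM estimate, quantification, centring and leaving out each library; leaving out libraries for isoform shares was chosen after seeing the data. A count of 0 allows up to 3 counts, for counting error only, as reads carried no molecular identifiers and copies of 1 molecule can be counted more than once. Sequences came from GENCODE M21 and RefSeq.

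The members and lists were chosen with earlier results of these data known. The text names all members, the 5 highest genes of the interval, the 3 genes most like Ccl5 and the lowest member, and from each list the 4 highest and 2 lowest genes tested and those at 0, except 1 gene of the receptor list that is not reported here and the markers of other cell types, given as sums and genes at 0.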

Additional observations from a re-analysis of the deposited data

How the results depend on the processing

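Of 77 values that count genes or members under another setting, 64 kept within 1.5 times of the value reported. Counts over all genes moved with the minimum: levels called above were 4928 with no minimum and 1317 with a minimum of 100, those called below 5539 and 785. Leaving out 1 library gave 2406 to 3066 above and 1546 to 3232 below, the lowest of both without replicate 3. For the quantification difference, 518 genes were above with no minimum and 418 with a pseudocount of 0.1, and leaving out 1 library gave 251 to 350 above and 91 to 128 below, 128 of them without replicate 1. The members called there were 0 with no minimum and 0 to 1 on leaving out a library. Members called above by level were 6 in all alternatives but no minimum (7) and the minimum of 100 (5 of 6 tested, where Ccl12 and Ccl6 drop out). Relative to the median protein-coding gene, 4 members had an SD over the median. With posterior mean TPM the quantification difference of Ccl5 was 0.18 in place of -0.04. In CPM the neighbour pairs in the order reported in every library were 3 in place of 5. In TPM such pairs stayed at 5 on leaving out any 1 library. Differences that changed sign were Ccl4 over Ccl2 (-0.60), Ccl3 over Ccl7 (-0.08), Ccl7 over Ccl9 (-0.65) and Ccl12 over Ccl6 (-0.76) in CPM, which is not per length, and Ccl2 over Ccl3 (-0.02) and Ccl7 over Ccl9 (-0.52) in the alignment-free tables. Without replicate 1, Ccl3 over Ccl7 was -0.30 and Ccl12 over Ccl6 -0.34, against 0.46 without replicate 2. The cause of the other changes was not tested. Members with over 50% of TPM in isoforms not typed protein-coding were 3 in both quantifications, with Ccl9 in place of Ccl2 in the alignment-free one. No paired analysis was possible because there is no other group whose replicates could be matched; differences between neighbours and between quantifications were taken within libraries. Counts were lowest for Ccl12 and Ccl6, at 27 to 98 per library.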
